A study of Mus musculus with 16 samples.

Results

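The genes *Apoe*, *Trem2*, *Spp1*, *Gpnmb*, *Fabp5*, *Lpl*, *Cd36*, *Abca1* and *Plin2* are associated with macrophages that take up and store lipid. They were chosen by name, as 9 of the 24469 gene symbols in the deposited count tables, and all 9 were found. A macrophage that clears dying cells or lipoproteins takes in fatty acids and cholesterol, holds them in droplets and passes the excess to lipoprotein particles. In adipose tissue, in the brain and in tumors, macrophages loaded in this way express *Trem2*, a lipid-sensing receptor, together with secreted and lysosomal proteins such as osteopontin and GPNMB. In tumors, macrophages of this kind have been tied to weak T cell responses.

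Mice bearing MC38 tumors, which grow from a mouse colon adenocarcinoma line, were given antibody to PD1, an inhibitory receptor of T cells, or an isotype control antibody. CD45+ cells, which are the leukocytes, were sorted from tumors and spleens and their RNA was counted cell by cell. The 8 libraries hold 1 tumor and 1 spleen library for each of 4 conditions, so that no difference has a replicate check and no test between conditions was run. The comparisons ask how loss of *Aire*, which is needed for T cell tolerance in the thymus, and PD1 blockade were accompanied by different levels of these genes. Mice of both genotypes, *Aire*+/+ and *Aire*-/-, were given either antibody. Both genotypes are on the C57BL/6 strain, *Aire*-/- mice lack *Aire* in all tissues, the mice were 8 weeks old, and each antibody was given at 5 mg/kg. Tissues were taken on day 19. Each tumor library pools the tumors of 4 to 6 mice, and spleens were pooled too, so the spread between mice cannot be seen.

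*Aire* itself had 0, 2, 1 and 0 UMIs in the tumors, where each row of 4 values gives *Aire*+/+ mice with isotype, then with anti-PD1, and then *Aire*-/- mice in the same way. In the spleens it had 2, 5, 4 and 0. A UMI (unique molecular identifier) stands for 1 captured RNA molecule. These numbers are too low to check the genotype labels, and UMIs from outside the deleted stretch would check nothing. Barcodes were kept with at least 200 genes and at most 20% mitochondrial UMIs, which left 2930, 2208, 1856 and 2075 cells in the tumors and 2095, 2088, 2023 and 2393 in the spleens. The tumor libraries held 38930017, 28760714, 24639370 and 23282799 UMIs, with medians of 11892, 11858.5, 12251.5 and 9889 per cell. The splenic libraries were shallower, at 12131827, 10927391, 11179227 and 12618095 UMIs and medians of 4549, 4413.5, 4733 and 4502.

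Cell types were assigned from UMIs of marker genes, and a macrophage was a cell with at least 5 UMIs of *C1qa*, *C1qb* and *C1qc* together. In the tumors this gate held 1222, 817, 586 and 242 cells. Macrophages made up 41.7% (39.9 to 43.5) of the *Aire*+/+ isotype cells, 37.0% (35.0 to 39.1) of the *Aire*+/+ anti-PD1 cells, 31.6% (29.5 to 33.7) of the *Aire*-/- isotype cells and 11.7% (10.3 to 13.1) of the *Aire*-/- anti-PD1 cells, so the *Aire*-/- anti-PD1 values rest on the fewest cells. The ranges in parentheses are exact Clopper-Pearson 95% intervals, and every interval given here covers counting error only. Spleens had 15, 5, 5 and 6 macrophages, too few for a comparison. Monocytes were cells outside the earlier gates with at least 5 UMIs of *Lyz2* and 2 of monocyte genes such as *Ly6c2* and *Ccr2*, and numbered 840, 571, 507 and 396 in the tumors and 180, 121, 110 and 64 in the spleens. The median depth of tumor macrophages was 14572.5, 14628, 14095.5 and 11362 UMIs per cell and that of tumor monocytes 11304.5, 11774, 11903 and 10600.5.

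Genes that the gate did not use were measured to see what it selected. A level in CPM is the sum of a gene's UMIs in all cells of a type, scaled to 1000000 UMIs of those cells. The macrophage receptor gene *Adgre1* had 166, 199, 135 and 94.9 CPM in tumor macrophages and 3.21, 3.42, 4.94 and 1.14 in tumor T cells. *Csf1r* had 476, 496, 469.6 and 398 CPM in macrophages. *Mrc1* had 35.6, 34.1, 29.9 and 31.4, *Msr1* 273, 217, 272 and 227, *Ms4a7* 1420.1, 1528, 1042 and 612 and *Cd68* 841, 802, 766 and 545. The label therefore had its markers in every tumor library, with *Adgre1*, *Csf1r*, *Ms4a7* and *Cd68* lowest in *Aire*-/- anti-PD1.

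C1q itself, which defines the gate, also differed inside it. The median number of C1q UMIs per macrophage was 127, 131, 112 and 57, lowest in *Aire*-/- anti-PD1. Cells with 5 to 9 C1q UMIs made up 5.07, 6.49, 6.66 and 15.7% of the gate. *C1qa* in macrophages was 3531, 3994, 3120.3 and 2139.8 CPM, and *Lyz2*, which is high in monocytes, was 2021, 2024, 2329 and 3295 CPM. Of the macrophages, 99, 56, 50 and 35 cells (8.10, 6.85, 8.53 and 14.5%) also reached the gate of B, T or NK cells, with the highest share in *Aire*-/- anti-PD1. Doublets, free RNA and true expression cannot be told apart in such cells, and the main values keep them.

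Markers of other cell types were counted in the macrophages. The list of 5 epithelial or tumor cell genes (*Epcam*, *Krt8*, *Krt18*, *Krt19* and *Cldn4*) summed to 0.469, 0.236, 0.644 and 1.35 CPM, with 2, 1, 2 and 2 of them found, *Epcam* the most abundant, and *Krt8* and *Krt19* at 0 in all 4 libraries. The 4 fibroblast genes (*Col1a1*, *Col1a2*, *Col3a1* and *Dcn*) summed to 3.49, 4.791, 4.51 and 2.70 CPM, with 4, 4, 4 and 3 of them found, *Col1a1* or *Dcn* the most abundant, and *Col1a2* at 0 in *Aire*-/- anti-PD1. Endothelial genes (*Pecam1*, *Cdh5*, *Kdr* and *Gpihbp1*) summed to 19.0, 29.4, 35.3 and 35.8 CPM, with 3 of 4 found in each library, *Kdr* or *Pecam1* the most abundant, *Gpihbp1* at 0, and *Aire*+/+ isotype lowest. All 3 adipocyte genes (*Adipoq*, *Plin1* and *Cidec*) had 0 UMIs in the macrophages of all 4 libraries. The 3 osteoclast genes (*Acp5*, *Ctsk* and *Ocstamp*), markers of a cell that carries CD45 too, summed to 147, 209.5, 132 and 122 CPM, all 3 were found in each library, and *Acp5* had most of it at 135, 195, 109 and 96.2 CPM. Their part in the results was not tested.

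*Apoe* encodes apolipoprotein E, a secreted lipid carrier. Its level in tumor macrophages was 2534 with isotype and 3709 with anti-PD1 in *Aire*+/+ tumors, and 1926 and 1469 in *Aire*-/- tumors, in CPM, with exact Poisson 95% intervals of 2512 to 2557, 3675 to 3742, 1898 to 1955 and 1426 to 1513. The *Aire*+/+ anti-PD1 library was highest and both *Aire*-/- libraries were lower than both *Aire*+/+ libraries. Between the anti-PD1 tumors the genotype ratio, *Aire*-/- over *Aire*+/+ on the log2 scale, was -1.34 (-1.38 to -1.29), a fall of 2.52-fold, with the conditional exact 95% interval of a ratio of sums in parentheses. Between the isotype tumors it was -0.40 (-0.42 to -0.37). The treatment ratio, anti-PD1 over isotype, was 0.55 (0.53 to 0.57) in *Aire*+/+ and -0.39 (-0.44 to -0.34) in *Aire*-/- mice, so it was above 0 in one genotype and below 0 in the other.

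*Trem2* encodes the receptor that binds lipids and ApoE-containing particles. Its macrophage level was 344 with isotype and 337 with anti-PD1 in *Aire*+/+ tumors, and 226 and 192 in *Aire*-/- tumors (CPM, intervals 336 to 353, 327 to 347, 217 to 236 and 177 to 209). Both *Aire*-/- libraries were lower than both *Aire*+/+ libraries. Its genotype ratio was -0.81 (-0.94 to -0.68) under anti-PD1, or -0.57 in macrophages with at least 20 C1q UMIs, which is short of 1.5-fold. Under isotype it was -0.61 (-0.68 to -0.54), and -0.56, short of 1.5-fold, when scaled by the median ratio of all genes. Treatment ratios of *Trem2* were nearer 0, with -0.033 (-0.089 to 0.023) in *Aire*+/+ and -0.23 (-0.37 to -0.10) in *Aire*-/- mice. The interval of the *Aire*+/+ value is narrow and includes 0, so the levels with isotype and anti-PD1 were alike there within counting error.

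*Spp1* encodes osteopontin, a secreted protein that binds integrins and CD44. Macrophages had 933 with isotype and 543 with anti-PD1 in *Aire*+/+ tumors, and 496 and 104 in *Aire*-/- tumors (CPM, intervals 919 to 947, 530.3 to 556, 482 to 511 and 92.4 to 116). With all gated cells kept, *Spp1* had the widest spread of the 9 genes between the 4 libraries in macrophages on the log2 scale. Its level was highest in *Aire*+/+ isotype and lowest in *Aire*-/- anti-PD1. Without the cell with most UMIs of a gene in each library, *Gpnmb* spread slightly more. Genotype ratios were -2.39 (-2.56 to -2.22) under anti-PD1 and -0.91 (-0.96 to -0.86) under isotype. With treatment it fell as well, by log2 ratios of -0.78 (-0.82 to -0.74) in *Aire*+/+ and -2.26 (-2.43 to -2.09) in *Aire*-/- mice, and *Spp1* was the one gene of the 9 that was lower by 1.5-fold in all 4 comparisons.

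*Gpnmb* encodes a transmembrane glycoprotein of lysosomes and phagosomes. It had 20.4 with isotype and 20.4 with anti-PD1 in *Aire*+/+ tumors, and 11.4 and 4.39 in *Aire*-/- tumors (CPM, intervals 18.4 to 22.5, 18.01 to 23.1, 9.31 to 13.8 and 2.34 to 7.50), from 391, 260, 106 and 13 UMIs in 93, 52, 23 and 5 cells. Both *Aire*+/+ libraries were alike and *Aire*-/- anti-PD1 was lowest. The genotype ratio was -2.22 (-3.15 to -1.42) under anti-PD1 and -0.84 (-1.17 to -0.53) under isotype. Anti-PD1 over isotype gave *Gpnmb* ratios of 0.00 (-0.23 to 0.23) in *Aire*+/+ and -1.37 (-2.33 to -0.54) in *Aire*-/- mice. Few cells carried the gene, since the 5 cells with most UMIs held 30.2%, 51.2%, 62.3% and 100% of its macrophage UMIs. In *Aire*-/- anti-PD1, 8 of the 13 UMIs came from 1 cell. Without the cell with most *Gpnmb* UMIs in each library, a setting chosen after the data were seen, the anti-PD1 genotype ratio was -3.29 and the *Aire*-/- treatment ratio -2.45.

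*Lpl*, *Cd36* and *Fabp5* act in the supply of fatty acids. *Lpl* encodes lipoprotein lipase, which frees fatty acids from lipoproteins, and had 21.3 with isotype and 28.4 with anti-PD1 in *Aire*+/+ tumors, and 15.0 and 8.44 in *Aire*-/- tumors (CPM, intervals 19.3 to 23.5, 25.6 to 31.5, 12.6 to 17.7 and 5.46 to 12.5). Its level was highest in *Aire*+/+ anti-PD1 and lowest in *Aire*-/- anti-PD1. For *Lpl* the genotype ratio was -1.75 (-2.40 to -1.17) under anti-PD1 and -0.51 (-0.79 to -0.23) under isotype, and the treatment ratio 0.42 (0.21 to 0.62) in *Aire*+/+ and -0.83 (-1.51 to -0.21) in *Aire*-/- mice, with signs that differ. In *Aire*-/- anti-PD1, 13 of 25 UMIs lay in 1 cell. Without the cell with most *Lpl* UMIs in each library the anti-PD1 genotype ratio was -2.67 and the *Aire*-/- treatment ratio -1.72.

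*Cd36* encodes a scavenger receptor for oxidized lipoproteins and fatty acids. Its macrophage level was 7.40 with isotype and 7.93 with anti-PD1 in *Aire*+/+ tumors, and 8.80 and 7.43 in *Aire*-/- tumors (CPM, intervals 6.23 to 8.72, 6.46 to 9.64, 6.996 to 10.9 and 4.65 to 11.2). These values overlapped in their intervals. Its genotype ratio was -0.10 (-0.83 to 0.58) under anti-PD1 and 0.25 (-0.16 to 0.65) under isotype, and its treatment ratio 0.10 (-0.28 to 0.48) in *Aire*+/+ and -0.24 (-0.99 to 0.45) in *Aire*-/- mice, with signs that changed between settings. A difference between conditions was not detectable at this depth, with 22 UMIs in *Aire*-/- anti-PD1.

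*Fabp5* encodes a fatty acid binding protein of the cytosol. Macrophages had 323 with isotype and 288 with anti-PD1 in *Aire*+/+ tumors, and 428 and 198 in *Aire*-/- tumors (CPM, intervals 315 to 331, 279 to 298, 415 to 442 and 182 to 214). The *Aire*-/- isotype library was highest and *Aire*-/- anti-PD1 lowest. Accordingly the genotype ratio was -0.54 (-0.67 to -0.42) under anti-PD1 and 0.41 (0.35 to 0.46) under isotype, on opposite sides of 0. The treatment ratio of *Fabp5* was -0.16 (-0.22 to -0.11) in *Aire*+/+ and -1.12 (-1.24 to -0.99) in *Aire*-/- mice. Without the cell with most *Fabp5* UMIs in each library, the anti-PD1 genotype ratio was -0.73, past 1.5-fold.

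*Abca1* encodes the transporter that passes cholesterol and phospholipid to apolipoproteins. It had 47.1 with isotype and 66.0 with anti-PD1 in *Aire*+/+ tumors, and 55.4 and 63.8 in *Aire*-/- tumors (CPM, intervals 44.1 to 50.3, 61.7 to 70.7, 50.7 to 60.3 and 55.0 to 73.6), lowest in *Aire*+/+ isotype. Under anti-PD1 its genotype ratio was -0.050 (-0.29 to 0.18), and 0.022 when scaled by the median ratio of all genes, so the direction is not set. Under isotype it was 0.23 (0.073 to 0.39). Treatment ratios were 0.49 (0.35 to 0.62) in *Aire*+/+ and 0.20 (-0.043 to 0.45) in *Aire*-/- mice. None of the 4 ratios passed 1.5-fold, while the anti-PD1 genotype ratio of *Apoe*, whose protein accepts such lipid, did.

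*Plin2* encodes perilipin 2, which coats lipid droplets. Its macrophage level was 437 with isotype and 512 with anti-PD1 in *Aire*+/+ tumors, and 457 and 328 in *Aire*-/- tumors (CPM, intervals 428 to 447, 499 to 524, 444 to 471 and 307 to 349). The *Aire*-/- anti-PD1 library was lowest and *Aire*+/+ anti-PD1 highest. The genotype ratio of *Plin2* under anti-PD1 was -0.64 (-0.74 to -0.54), just past 1.5-fold, and -0.57, short of it, when scaled by the median ratio of all genes. Under isotype it was 0.065 (0.012 to 0.12), and anti-PD1 over isotype gave 0.23 (0.18 to 0.27) in *Aire*+/+ and -0.48 (-0.58 to -0.38) in *Aire*-/- mice. The first ratio was also short of 1.5-fold, at -0.57, without the macrophages that also reached the gate of B, T or NK cells.

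**Figure D1:**
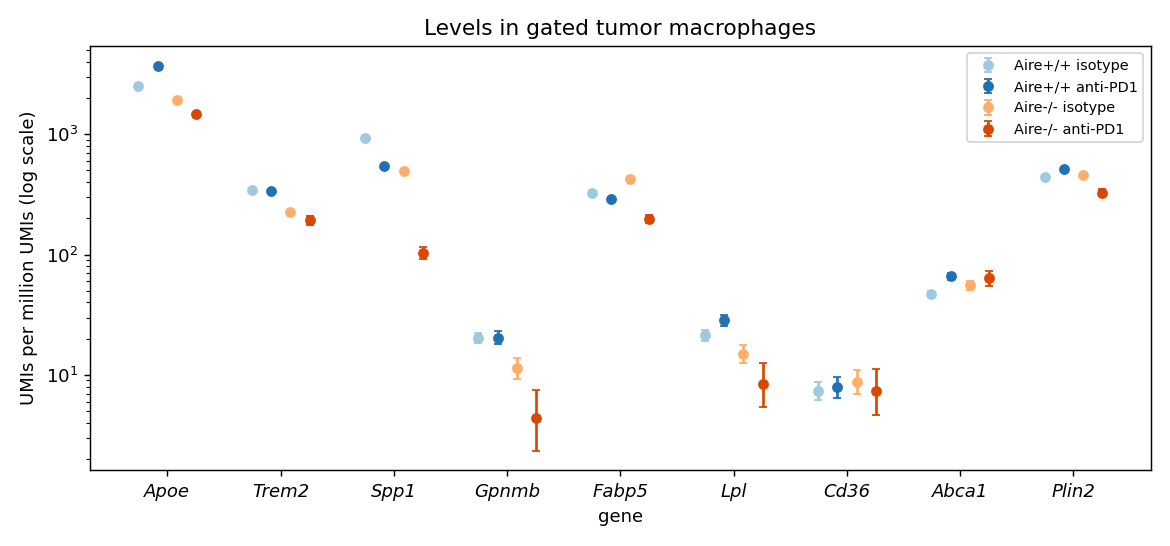
CPM (log scale) of the 9 genes in gated macrophages of the 4 tumor libraries, with exact Poisson 95% intervals as bars. *Spp1*, *Gpnmb* and *Lpl* were lowest in *Aire*-/- anti-PD1, while the points of *Cd36* lay close together.

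Past 1.5-fold is called lower or higher here, and the share of all genes past the same fold, among genes with at least 20 UMIs over the pair of libraries, is the background. All 9 genes passed that minimum in macrophages in each comparison. Under anti-PD1, 6 of 9 genes were lower in *Aire*-/- than in *Aire*+/+ macrophages, against 13% of 10503 genes, and 0 were higher, against 9.86%. The 6 were *Apoe*, *Trem2*, *Spp1*, *Gpnmb*, *Lpl* and *Plin2*. Which direction had more genes depended on scaling, since the higher ones were 43.1% of all genes past the fold as given and 53.0% when scaled by the median ratio. In the same comparison the macrophage markers *Adgre1* (-1.07) and *Ms4a7* (-1.32) and the gate genes *C1qa* (-0.90) and *C1qc* (-0.67) were also lower by 1.5-fold, and *Lyz2* (0.70) was higher. The median log2 ratio of the 9 was -0.81, beside -0.066 over all genes. Under isotype, 3 of 9 were lower (*Trem2*, *Spp1* and *Gpnmb*), against 6.18% of 11143 genes, and 0 were higher, against 6.78%. Here the median was -0.40 beside -0.043.

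In *Aire*+/+ macrophages, anti-PD1 over isotype left 1 of 9 genes lower (*Spp1*), against 4.13% of 11215 genes, and 0 higher, against 3.29%. The median of the 9 was 0.10 beside -0.024 over all genes. In *Aire*-/- macrophages, 4 of 9 were lower (*Spp1*, *Gpnmb*, *Fabp5* and *Lpl*), against 8.6% of 10235 genes, and 0 higher, against 7.12%. The macrophage marker *Ms4a7* (-0.77) was also lower by 1.5-fold there. *C1qa* (-0.54), *Adgre1* (-0.51), *Cd68* (-0.49) and *Lyz2* (0.50) stayed within that fold. The higher share of genes past the fold was 45.3% as given and 54.2% when scaled. There the median of the 9 was -0.48 beside -0.043. Each library takes part in a genotype and in a treatment comparison, so these counts share samples, and the *Aire*-/- anti-PD1 library is on one side of both comparisons with the most genes past the fold. Whether the genotype ratio differed between treatments was not tested.

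Tumor monocytes expressed the same genes. *Apoe* had 1314, 1871, 1180.3 and 1088 CPM there, *Trem2* 149, 131, 81.5 and 64.7 and *Spp1* 1047, 432, 247 and 70.9. All 3 were lower in both *Aire*-/- libraries than in both *Aire*+/+ libraries. *Gpnmb* had 10.1, 35.2, 5.85 and 2.39 CPM, with *Aire*+/+ anti-PD1 highest, where 82 of 242 UMIs lay in 1 cell. *Fabp5* had 417, 356, 374 and 275, *Lpl* 11.5, 17.5, 10.2 and 17.7 and *Cd36* 14.8, 18.3, 10.2 and 11.9 CPM. *Abca1* had 32.5, 44.7, 38.0 and 49.2 and *Plin2* 426, 586, 424 and 321. *Lpl* and *Abca1* were as high in *Aire*-/- anti-PD1 monocytes as in those of *Aire*+/+ anti-PD1, unlike the others.

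Under anti-PD1, 6 of the 9 genes were lower by 1.5-fold in *Aire*-/- than in *Aire*+/+ monocytes, against 13.3% of 9454 genes, and 0 were higher, against 6.53%. The log2 ratios were -0.78 (-0.83 to -0.73) for *Apoe*, -1.01 (-1.21 to -0.82) for *Trem2* and -2.61 (-2.79 to -2.44) for *Spp1*. *Gpnmb* had -3.88 (-4.96 to -2.98), *Cd36* -0.62 (-1.12 to -0.14) and *Plin2* -0.87 (-0.96 to -0.78). In monocytes without a C1q UMI, a choice made after the data were seen, *Cd36* had -0.16 (-0.70 to 0.36), short of 1.5-fold, and the others of the 6 stayed past it. *Apoe*, *Trem2*, *Spp1*, *Gpnmb* and *Plin2* were thus lower by 1.5-fold in both cell types, and *Lpl* was lower in macrophages only, with 0.016 (-0.42 to 0.45) in monocytes. Among 9366 genes with at least 20 UMIs in both types, which come from the same libraries, 411 were lower in both, or 4.39% of them and 40.3% of the 1019 lower in macrophages. The ratios of *Fabp5* (-0.37) and *Abca1* (0.14) stayed within 1.5-fold. Between the isotype tumors the 9 genes in monocytes had 0 higher and 3 lower (median -0.17), against 530 and 933 of 9888 genes (median -0.070), with a log2 ratio of -2.08 (-2.16 to -2.00) for *Spp1*, -0.87 (-1.02 to -0.73) for *Trem2* and -0.79 (-1.38 to -0.22) for *Gpnmb*, and -0.15 (-0.20 to -0.11) for *Apoe*, within 1.5-fold. With anti-PD1 over isotype they had 2 higher and 1 lower (median 0.46), against 439 and 401 of 9977 genes (median -0.013) in *Aire*+/+ monocytes. In *Aire*-/- monocytes they had 1 higher and 2 lower (median -0.33), against 458 and 652 of 9263 genes (median -0.029). *Spp1* had -1.28 in *Aire*+/+ and -1.80 in *Aire*-/- monocytes. *Lpl* had 0.60 (0.22 to 0.98) in *Aire*+/+ and 0.79 (0.28 to 1.30) in *Aire*-/- monocytes, and without the cell with most *Lpl* UMIs in each library 0.43 (0.01 to 0.84), short of 1.5-fold, and 1.03 (0.48 to 1.59). For *Gpnmb* the ratio was 1.80 (1.46 to 2.16) in *Aire*+/+ and -1.29 (-2.47 to -0.25) in *Aire*-/- monocytes, opposite in sign.

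**Figure D2:**
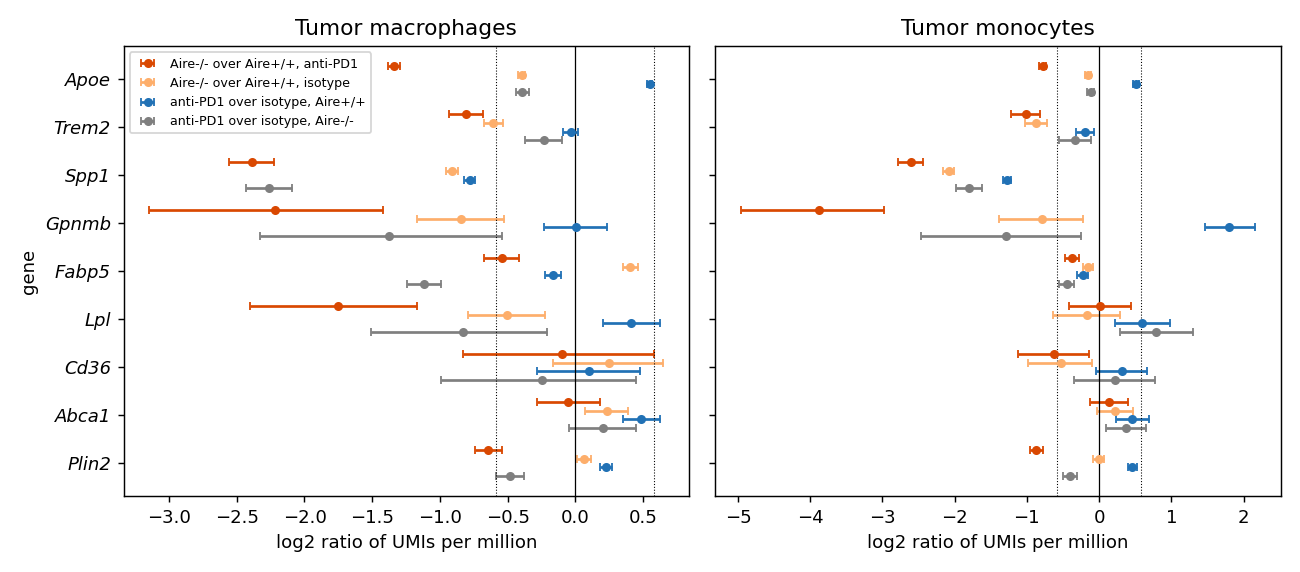
Log2 ratio of CPM for each gene in tumor macrophages (left) and monocytes (right), in the 4 comparisons, with conditional exact 95% intervals, and dotted lines at 1.5-fold. In macrophages, *Spp1* lay left of the lower dotted line in all 4 comparisons and no point lay right of the upper one.

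The share of cells with at least 1 UMI gives a second reading. T cells, which should lack *Apoe*, *Trem2* and *Lpl*, were taken for the background from free RNA, with median depths of 8634, 7758, 9180 and 8434 UMIs per cell beside those of macrophages above. *Apoe* was found in 91.2, 94.2, 89.1 and 86.8% of macrophages and 8.26, 10.0, 7.89 and 4.48% of T cells. After each cell was thinned at random to 3000 UMIs, so that depth no longer differed, these shares were 82.4, 87.3, 78.8 and 71.9% and 5.98, 2.90, 4.68 and 2.56%. No tumor cell was too shallow for that. Macrophages stood far above T cells in every library and *Aire*-/- anti-PD1 was lowest in both measures.

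*Trem2* was found in 78.2, 78.1, 67.9 and 55.8% of macrophages and 4.56, 1.85, 3.51 and 1.07% of T cells, or 50.8, 47.7, 38.6 and 32.6% and 2.28, 0.792, 1.17 and 0.320% after thinning. Both *Aire*-/- shares were below both *Aire*+/+ shares. *Gpnmb* was found in 7.61, 6.36, 3.92 and 2.07% of macrophages and 1.71, 0.792, 1.46 and 0.961% of T cells, and after thinning in 3.601, 3.18, 1.37 and 1.24% and 0.570, 0.528, 0.585 and 0.320%. In *Aire*-/- anti-PD1 the thinned intervals of macrophages (0.256 to 3.58) and T cells (0.0661 to 0.933) overlapped. Those of *Aire*-/- isotype overlapped as well, so by this draw *Gpnmb* was not clear of the T cell share in either *Aire*-/- library. The expected macrophage share over all draws was 1.98% in *Aire*-/- isotype and 1.04% in *Aire*-/- anti-PD1. By level, macrophages had at least 4.39 CPM in every tumor library and T cells at most 2.86. The lowest macrophage value, in *Aire*-/- anti-PD1, rests on 13 UMIs.

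*Lpl* was found in 12.0, 11.1, 6.14 and 3.31% of macrophages and 0.285, 0.528, 1.17 and 0% of T cells, and *Cd36* in 4.58, 4.16, 5.97 and 3.31% and 0.855, 0, 0 and 0%. Where T cells had none, the upper 95% limit was 0.393% for *Lpl*, and 0.969%, 1.07% and 0.393% for *Cd36*. Thinned, *Lpl* was in 3.76, 5.02, 1.54 and 3.31% of macrophages and *Cd36* in 1.72, 0.979, 1.37 and 1.24%. For *Lpl* this order differs from that of its level, with *Aire*-/- isotype lowest. Thinning is 1 random draw, and the exact expected share over all draws, added after the data were seen, was 3.68, 4.25, 2.22 and 1.28% for *Lpl*, with *Aire*-/- anti-PD1 lowest. Both genes were thus seen in few macrophages of any condition. *Abca1* was found in 39.4, 43.0, 40.1 and 38.4% of macrophages against 1.71, 0.264, 2.92 and 1.60% of T cells, and *Plin2* in 90.6, 91.7, 91.8 and 83.5% against 37.3, 24.3, 25.7 and 20.6%. Thinned, the macrophage shares were 13.1, 16.5, 14.7 and 16.1% for *Abca1* and 60.3, 62.9, 63.5 and 55.0% for *Plin2*. *Plin2* was lowest in *Aire*-/- anti-PD1 by both shares, and *Abca1* lowest in *Aire*+/+ isotype after thinning. *Fabp5*, which T cells can express, was found in 54.6, 48.5, 55.8 and 40.9% of macrophages and 37.9, 26.9, 21.6 and 16.8% of T cells.

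*Spp1* was found in 57.4, 44.2, 42.7 and 22.7% of macrophages and 38.7, 28.0, 25.6 and 12.8% after thinning, falling in the order of its level. In T cells it was found in 13.4, 11.3, 11.4 and 13.9% and in NK cells in 36.8, 39.2, 39.4 and 35.6%. Thinned, these were 8.83, 6.33, 7.89 and 9.07% of T and 25.5, 24.6, 30.3 and 26.6% of NK cells. In *Aire*-/- anti-PD1 the thinned NK share (interval 21.4 to 32.3) was above that of macrophages (8.87 to 17.7). Lymphocytes therefore cannot serve as a background for *Spp1*.

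The *Spp1* level of tumor NK cells was 651 with isotype and 289 with anti-PD1 in *Aire*+/+ tumors, and 868 and 876 in *Aire*-/- tumors (CPM, intervals 613 to 691, 264 to 315, 827 to 911 and 845 to 906). T cells had 353.6, 150.2, 333 and 336 CPM. In both types *Aire*+/+ anti-PD1 was lowest. Sorted CD8+ tumor cells, from separate libraries, had 219, 174, 255 and 233 CPM, also lowest there, but closer together than in gated T cells. Under anti-PD1 the genotype ratio of *Spp1* was 1.60 (1.46 to 1.74) in NK and 1.16 (1.03 to 1.29) in T cells, opposite in sign to macrophages and monocytes. Under isotype it was 0.42 (0.30 to 0.53) in NK and -0.086 (-0.20 to 0.026) in T cells. The treatment ratio was -1.17 and -1.24 in *Aire*+/+ mice, and 0.012 and 0.012 in *Aire*-/- mice, for NK and then T cells.

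Of all *Spp1* UMIs of a tumor library, macrophages and monocytes together held 86.8%, 79.8%, 63.6% and 8.37%, and T and NK cells held 7.39%, 8.68%, 30.7% and 89.2%. Most *Spp1* of the *Aire*-/- anti-PD1 library was thus in lymphocytes. That library also had the highest share of these cells. T cells made up 12.0, 17.2, 18.4 and 45.2% of the cells of a tumor library, and NK cells 3.62, 5.89, 8.35 and 12.9%. For *Apoe*, macrophages and monocytes held 96.0%, 96.2%, 94.5% and 93.2%, and for *Trem2* 95.8%, 96.2%, 95.4% and 93.9%. The number of *Apoe* UMIs per *Spp1* UMI was 2.72, 6.83, 3.88 and 14.2 in macrophages, 0.228, 0.299, 0.177 and 0.0724 in T cells and 0.0493, 0.0556, 0.00237 and 0.00468 in NK cells. This ratio was lower in T and NK cells than in macrophages in every library. How much of the lymphocyte value was free RNA was not tested.

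NK cells with *Spp1* were deeper than those without it. They numbered 39, 51, 61 and 95 and had median depths of 21566, 20793, 15578 and 21178 UMIs, against 7371, 6316, 6756.5 and 7359 in the others. A cell with *Spp1* had a median of 8, 7, 7 and 13 of its UMIs and at most 273, 57, 342 and 380. The 5 NK cells with most *Spp1* held 63.2%, 36.3%, 55.4% and 33.5% of the NK total. Among T cells the 5 with most held 82.3%, 71.1%, 67.1% and 29.1%, and in *Aire*+/+ isotype 1 T cell held 447 of 1322 UMIs. Without the cell with most *Spp1* in each library, the T cell genotype ratio was 1.72 (1.56 to 1.89) under anti-PD1 and 0.052 (-0.082 to 0.19) under isotype, where its sign changed. The T cell treatment ratio was then -1.33 (-1.51 to -1.15) in *Aire*+/+ and 0.34 (0.24 to 0.45) in *Aire*-/- mice, and that of NK cells -0.90 (-1.07 to -0.73) and 0.14 (0.048 to 0.24), the *Aire*-/- intervals of both types lying above 0. In NK cells with *Spp1*, *C1qa* was at 0, 2.69, 0.889 and 2.78 CPM, against 5.84, 1.59, 11.04 and 3.33 in NK cells without it, where the macrophage gate, applied first, takes cells with at least 5 C1q UMIs. *Lyz2* was at 144, 240.3, 314 and 35.7 CPM, against 7.30, 6.36, 6.13 and 2.66 in NK cells without *Spp1*. T cells with *Spp1* had *Lyz2* at 253, 985, 29.3 and 9.07 CPM, against 264, 205, 372 and 183 in T cells without it, and *Apoe* at 139, 156, 182 and 21.3 CPM, against 64.6, 19.7, 34.1 and 25.2. In NK cells *Lyz2* was higher with *Spp1* in every library, while in T cells *Lyz2* was higher with it in 1 library and *Apoe* in 3. The part of doublets was not tested. In the spleens, *Spp1* had 26, 7, 9 and 32 UMIs per library.

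**Figure D3:**
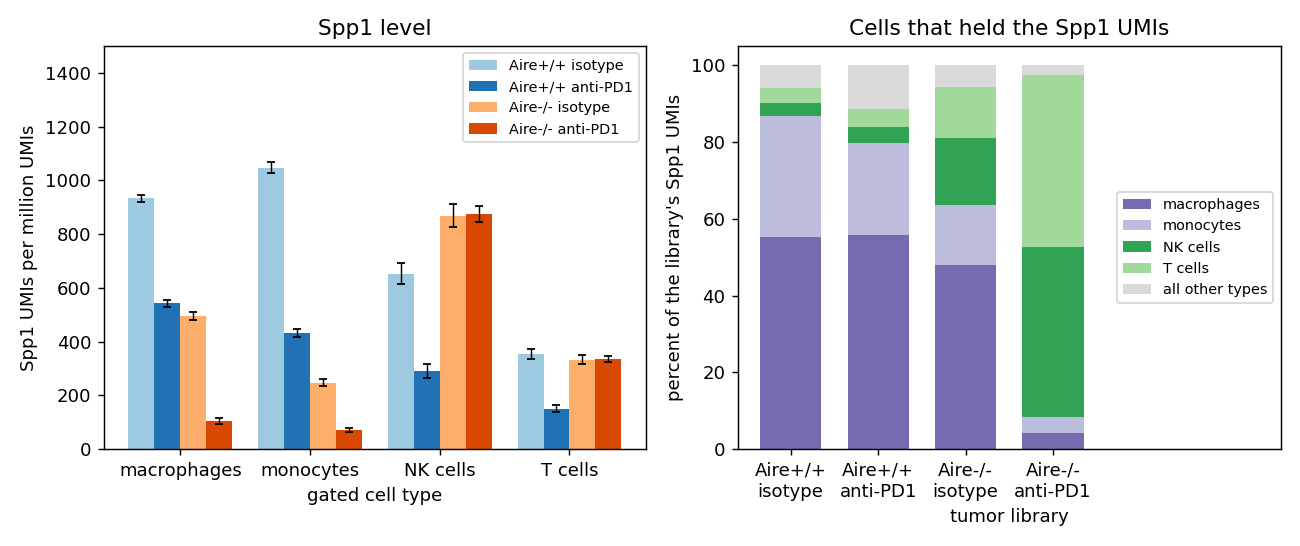
Left, *Spp1* CPM in gated tumor macrophages, monocytes, NK cells and T cells of each condition, with exact Poisson 95% intervals. Right, the percentage of each tumor library's *Spp1* UMIs held by each cell type, where the green parts, NK and T cells, held most in *Aire*-/- anti-PD1.

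The other cell types place the genes. In the tumors, *Apoe*, *Trem2*, *Lpl* and *Abca1* had their highest median level over the libraries in macrophages, followed by monocytes, with ranges that overlapped between those 2 types for *Apoe* (1469 to 3709 and 1088 to 1871 CPM), for *Lpl* (8.44 to 28.4 and 10.2 to 17.7) and for *Abca1* (47.1 to 66.0 and 32.5 to 49.2). *Trem2* ranges did not overlap (192 to 344 in macrophages and 64.7 to 149 in monocytes). *Plin2* had like ranges in ungated cells (395 to 546), macrophages (328 to 512) and monocytes (321 to 586). *Cd36* had its highest median in monocytes (10.2 to 18.3). For *Spp1*, NK cells (289 to 876) were above macrophages and monocytes in both *Aire*-/- libraries, and below them in both *Aire*+/+ libraries. Cells outside every gate had the highest *Gpnmb*, at 53.6, 54.1, 41.7 and 77.4 CPM.

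Those ungated cells were not of 1 kind. The 4 fibroblast genes summed to 9.15, 8.17, 555 and 6.45 CPM in them, with *Col1a1* at 235 in *Aire*-/- isotype, and the 3 osteoclast genes to 407, 86.7, 48.7 and 38.7, with *Acp5* at 263 in *Aire*+/+ isotype. *Gpnmb* lay in 16, 9, 10 and 2 ungated cells, and the 5 with most UMIs held 82.9%, 95.3%, 83.3% and 100% of it. Which cells these were was not tested.

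*Fabp5* was highest outside macrophages. Mature dendritic cells, gated on *Ccr7*, *Fscn1* and *Ccl22*, had 3342, 3136, 2871 and 3366 CPM in the tumors, on 67, 50, 74 and 75 cells, above the 198 to 428 of macrophages in every library. The genotype ratio there was 0.10 (0.024 to 0.18) under anti-PD1 and -0.22 (-0.30 to -0.14) under isotype, both within 1.5-fold. Macrophages and monocytes together held 69.3%, 64.4%, 59.3% and 28.8% of the *Fabp5* UMIs of a tumor library. Their share of the cells was also lowest in *Aire*-/- anti-PD1, with 41.7, 37.0, 31.6 and 11.7% for macrophages and 28.7, 25.9, 27.3 and 19.1% for monocytes. Tumor T cells had 159.9, 79.2, 73.6 and 39.0 CPM, highest in *Aire*+/+ isotype.

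In the spleens, monocytes had the highest median level of *Apoe*, *Trem2*, *Fabp5*, *Lpl*, *Cd36* and *Plin2* among types with at least 30 cells in a library. *Apoe* had 916, 1364, 1558 and 1665 CPM in splenic monocytes and 179, 228, 182 and 266 in splenic B cells, and *Trem2* 64.2, 80.9, 76.3 and 58.2 in monocytes. *Cd36* had 44.2, 97.5, 52.0 and 144 CPM in splenic monocytes and 44.7, 34.0, 29.5 and 38.9 in B cells, above its 10.2 to 18.3 in tumor monocytes. For *Apoe*, splenic monocytes were lowest in *Aire*+/+ isotype, and for *Cd36* both anti-PD1 libraries were above both isotype libraries. *Abca1* was highest in splenic B cells, at 29.6, 35.7, 27.7 and 30.1 CPM. *Gpnmb* and *Spp1* were at or near 0 in splenic monocytes, with 4, 1, 0 and 0 and 10, 0, 0 and 0 UMIs. Splenic monocytes numbered 180, 121, 110 and 64 cells at median depths of 8836, 7644, 7865 and 6631.5 UMIs.

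Macrophages with much *Cxcl9*, a chemokine gene induced by interferon gamma, were also measured apart. Each cell was thinned to 5000 UMIs, which left out 47, 28, 27 and 14 macrophages as too shallow. Cells with at least 5 *Cxcl9* UMIs (*Cxcl9*-high) made up 5.79%, 9.89%, 14.5% and 23.7% of the rest, on 68, 78, 81 and 54 cells, rising from *Aire*+/+ isotype to *Aire*-/- anti-PD1. *Spp1* had 418, 574, 328 and 85.2 CPM in them, *Apoe* 2297, 2295, 1926 and 1656 and *Trem2* 279, 195, 151 and 152. The anti-PD1 genotype ratio in these cells was -2.75 (-3.44 to -2.13) for *Spp1*, -0.47 (-0.64 to -0.31) for *Apoe* and -0.36 (-0.94 to 0.21) for *Trem2*, and of these only *Spp1* was past 1.5-fold. *Fabp5* had 224, 210.3, 237 and 270.4 CPM and a ratio of 0.36 (-0.11 to 0.84), with an interval that includes 0, where that of all macrophages was below 0. *Plin2* had 315, 449, 363 and 322 and *Abca1* 26.5, 53.8, 42.0 and 63.0 CPM, with *Abca1* highest in *Aire*-/- anti-PD1. *Gpnmb* had 1, 2, 0 and 0 UMIs in *Cxcl9*-high cells, too few to compare.

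Because the *Aire*-/- anti-PD1 macrophages had less C1q, the genes were also compared among tumor cells with at least 50 C1q UMIs, thinned to 5000 UMIs. C1q was not matched by this, since *C1qa* had 4094, 4407, 3873 and 3307 CPM there, still lowest in *Aire*-/- anti-PD1. In these cells *Apoe* had 2778, 3937, 2266 and 1757 CPM, *Trem2* 366, 320.4, 254 and 245 and *Spp1* 938, 582, 541 and 129. The anti-PD1 genotype ratio there was -1.16 (-1.25 to -1.08) for *Apoe* and -2.18 (-2.51 to -1.86) for *Spp1*, past 1.5-fold, and -0.39 (-0.64 to -0.14) for *Trem2*, short of it. That of *Plin2* was -0.43 (-0.63 to -0.23) and that of *Fabp5* -0.58 (-0.85 to -0.33). *Gpnmb* had -2.13 (-4.45 to -0.52) on 3 and 64 UMIs, and *Lpl* -1.78 (-3.70 to -0.36) on 4 and 67.

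By C1q bins, from 0 C1q UMIs (macrophage and monocyte gates pooled) over 1 to 4, 5 to 19 and 20 to 49 to at least 50, *Trem2* had 113, 163, 144, 178 and 320.4 CPM in *Aire*+/+ anti-PD1 and 66.9, 60.3, 57.1, 121 and 245 in *Aire*-/- anti-PD1. *Apoe* had 1847, 2419.7, 2103, 2474 and 3937 in *Aire*+/+ anti-PD1 and 1164, 1209.5, 1186, 1512 and 1757 in *Aire*-/- anti-PD1. Both genes were highest in the last bin in all 4 libraries, while the highest bin of the other genes changed from library to library.

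Cell by cell, the genes were found together only weakly. Spearman correlations were taken across thinned macrophages within each tumor library, on 1175, 789, 559 and 228 cells that share a library, as a description. The median over the 4 libraries was 0.29 (lowest 0.24, highest 0.37) for *Apoe* and *Trem2*, the highest among the pairs of the 9 genes, 0.21 (lowest 0.19, highest 0.22) for *Gpnmb* and *Fabp5* and 0.19 (lowest 0.16, highest 0.19) for *Fabp5* and *Plin2*. *Spp1* with *Gpnmb* had 0.059 (lowest 0.038, highest 0.080) and *Trem2* with *Spp1* 0.054 (lowest 0.01, highest 0.064). *C1qa* had 0.28 (lowest 0.24, highest 0.38) with *Trem2* and -0.10 (lowest -0.19, highest -0.066) with *Fabp5*. Most of these genes were sparse in thinned cells, *Apoe*, *Plin2* and *C1qa* less so, and correlations of this size are taken as no finding.

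The genes most alike in level were sought over 45 pools of a cell type and library with at least 30 cells, among 9948 genes, by Pearson correlation of log2 of CPM plus 10. Pools of the same library share its mice, and pools of one type share its cells' identity. For *Apoe* they were *Myof* (0.96), *Apobec1* (0.95) and *Cyp4f18* (0.94), and for *Trem2* *Clec4a2* (0.96), *Tmem86a* (0.96) and *Adgre1* (0.95). *Spp1* was most like *Hilpda* (0.88), *Ldha* (0.87) and *Ppp1r3b* (0.87), and *Gpnmb* most like *Mmp13* (0.84), *Fnip2* (0.80) and *Lipg* (0.80). For *Fabp5* they were *Spred1* (0.95), *Pvr* (0.94) and *Mvp* (0.94), for *Lpl* *Adgre1* (0.90), *Tnfsf13* (0.89) and *C130050O18Rik* (0.89) and for *Cd36* *Lyl1* (0.93) and *Ampd3* (0.86). *Abca1* was closest to *Blvrb* (0.84), *Fgd6* (0.82) and *Tlr4* (0.82), and *Plin2* to *Tgfbi* (0.96), *Fcgr1* (0.95) and *Znhit1* (0.95). *Adgre1* was on the list of both *Trem2* and *Lpl*, and *Spp1*, *Gpnmb* and *Abca1* had the lowest top values.

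Other genes of the same pathways were counted in macrophages in the anti-PD1 genotype comparison, as past 1.5-fold among those with at least 20 UMIs, beside a median log2 ratio of -0.066 and shares of 9.86% higher and 13% lower over all genes. The longest list, 18 further genes shared by lipid-associated and disease-associated macrophages, had 3 higher and 8 lower of 17 measured out of 18 (median -0.57). Under isotype it had 0 higher and 2 lower of 17 measured out of 18 (median -0.12), beside 6.78% higher, 6.18% lower and a median of -0.043 over all genes. For anti-PD1 over isotype in *Aire*+/+ mice it had 1 higher and 2 lower of 18 measured out of 18 (median -0.061), beside 3.29%, 4.13% and -0.024. In *Aire*-/- mice it had 0 higher and 5 lower of 17 measured out of 18 (median -0.29), beside 7.12%, 8.6% and -0.043. Of these, *Mmp12*, a macrophage elastase gene, was lower in both genotype and both treatment comparisons, with 243, 76.3, 87.7 and 48.9 CPM and log2 ratios of -0.64, -1.47, -1.67 and -0.84. It thus had the same direction as *Spp1* in all 4 comparisons. *Cst7*, for a cystatin, was the most changed of the list and went up, from 11.2 to 29.0 CPM (1.38), and *Lilrb4a* the least changed (0.046).

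For the TREM2 complex and its kinases the count was 1 higher and 1 lower of 7 measured out of 7 (median 0.045), with *Ms4a7* most changed (-1.32) and *Ms4a6d* least (0.00). Lipoprotein and fatty acid uptake had 1 higher and 1 lower of 9 measured out of 10 (median 0.037), with the fatty acid transporter gene *Slc27a1* most (-1.45) and *Lrp1* least changed (0.037). The median of neither list lay far from that of all genes, although the receptor *Trem2* was lower. Cholesterol efflux and LXR targets had 1 higher and 1 lower of 10 measured out of 12 (median -0.17), from *Apoc1* (1.28) as the most to *Nr1h2* (-0.017) as the least changed. *Apoc1* had only 1.81 CPM in *Aire*+/+ and 4.39 in *Aire*-/- anti-PD1 macrophages, so its ratio rests on few UMIs. Lysosomal lipid handling had 0 higher and 1 lower of 9 measured out of 9 (median -0.18), from the lysosomal lipase gene *Lipa* (-0.72) to *Psap* (-0.023).

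Lipid droplet and storage genes had 1 higher and 0 lower of 11 measured out of 12 (median 0.044), with the lipase inhibitor gene *G0s2* most changed (3.69) and the lipase gene *Pnpla2* least (-0.030). *G0s2* had 13.3, 1.73, 5.79 and 22.3 CPM. The list of fatty acid binding and PPAR genes had 0 higher and 3 lower of 8 measured out of 10 (median -0.092), with *Pparg*, a lipid-sensing transcription factor gene, at 15.0, 16.9, 10.7 and 6.08 CPM (-1.47) and *Ppargc1b* least changed (0.021). *Pparg* was lower in *Aire*-/- anti-PD1, as *Lpl* was. In that list, *Fabp4* had 2.40, 1.02, 2.57 and 1.01 CPM and treatment ratios of -1.23 (-2.24 to -0.32) from 13 and 46 UMIs in *Aire*+/+ and -1.35 (-3.72 to 0.37) from 3 and 24 UMIs in *Aire*-/- mice, the latter with an interval that includes 0.

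Receptors of osteopontin had 1 higher and 1 lower of 6 measured out of 7 (median -0.24), from *Itga9* (-0.69) to *Itgb1* (-0.11). The MiT family of transcription factors, which act on lysosomal genes such as *Gpnmb*, had 0 higher and 0 lower of 4 measured out of 4 (median 0.01), from *Tfec* (0.52) to *Tfe3* (-0.13).

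Since *Trem2*, *Spp1* and *Gpnmb* were lower by 1.5-fold in both genotype comparisons, the 250 bases before their starts are printed, from RefSeq on build GRCm38.p6 and on the plus strand, which is the strand of all 3 genes. The windows are chr17:48346151-48346400 for *Trem2*, chr5:104434861-104435110 for *Spp1* and chr6:49036268-49036517 for *Gpnmb*. Promoter entries were found for 7 of the 9 genes, in 10 windows. Capitals mark matches on either strand to TGANTCA (the AP-1 motif), CACGTG (an E-box bound by MiT factors), GAGGAAG (a PU.1 core), AGGTCA (a nuclear receptor half-site) and TATAAA. Of 32851 promoter windows of the same length, 6.75% hold the first, 6.02% the second, 10.6% the third, 14.0% the fourth and 12.4% the last. The matches shown do not overlap.
Trem2: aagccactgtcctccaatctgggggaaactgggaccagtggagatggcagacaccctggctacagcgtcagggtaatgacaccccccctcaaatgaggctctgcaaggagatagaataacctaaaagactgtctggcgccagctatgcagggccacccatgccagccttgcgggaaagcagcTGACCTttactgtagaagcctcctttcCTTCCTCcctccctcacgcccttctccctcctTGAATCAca
Spp1: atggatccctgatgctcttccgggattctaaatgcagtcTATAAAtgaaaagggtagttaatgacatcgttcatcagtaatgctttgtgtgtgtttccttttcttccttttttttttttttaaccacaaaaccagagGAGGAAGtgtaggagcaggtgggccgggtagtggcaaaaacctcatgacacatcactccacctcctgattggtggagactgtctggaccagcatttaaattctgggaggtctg
Gpnmb: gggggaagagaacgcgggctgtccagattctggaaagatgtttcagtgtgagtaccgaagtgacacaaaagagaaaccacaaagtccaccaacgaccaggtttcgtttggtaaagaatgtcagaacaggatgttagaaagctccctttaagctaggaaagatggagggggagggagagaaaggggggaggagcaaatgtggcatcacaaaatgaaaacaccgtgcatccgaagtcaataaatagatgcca
The *Trem2* window holds TGACCT from 68 bases before the start, CTTCCTC from 41 and TGAATCA from 9. The *Spp1* window holds TATAAA from 211 bases before it and GAGGAAG from 113. None of these letter runs is in the *Gpnmb* window. Of the 7 genes, 3 have an AGGTCA match (*Cd36*, *Plin2* and *Trem2*), 3 TATAAA (*Abca1*, *Apoe* and *Spp1*) and 1 CACGTG (*Abca1*). A match describes letters in a window and is not a shown binding site, and a missing match says only that these letters are not there.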

How the data were processed

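The authors deposited raw UMI counts per gene and barcode for each library, not normalized, for called cells only, and the submitters' processing notes name GRCm38. Rows sharing a symbol were summed, and 27 vector rows were left out. The 8 CD45+ libraries held 17769 barcodes, of which 17668 passed the filters of at least 200 genes and at most 20% mitochondrial UMIs. Barcodes shared between 2 libraries numbered 3 to 16 (median 7) over 28 pairs. Gates were applied in a fixed order, macrophages first, then neutrophils, B, T and NK cells, dendritic cells and monocytes. No doublets were removed in the main values, and an alternative removes macrophages that reach a lymphocyte gate. Sums of UMIs carry exact Poisson intervals, shares Clopper-Pearson intervals and ratios of sums conditional exact intervals. A sum of 0 was given a floor of 3 counts in ratios. The genes named outside the 9 are those of the pathway lists past 1.5-fold the same way in both genotype or both treatment comparisons, the most and the least changed of a list, and up to 3 genes most like each of the 9, and not all of these, nor 1 of the lists and 2 subsets of macrophages, are reported here. The 9 genes and the lists were chosen with earlier results of these data known, and the promoter motifs after the values were seen. Alternatives varied the C1q minimum, doublets, thinning, scaling, weighting of cells, free RNA, filters and the fold. Python 3.11.15, numpy 2.4.6, scipy 1.17.1 and pandas 2.3.3 were used, and the scripts were tested on simulated data.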

Additional observations from a re-analysis of the deposited data

Results flagged for a closer look

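In tumor macrophages, 3 genes had anti-PD1 over isotype ratios of opposite sign in the 2 genotypes with both intervals clear of 0. The log2 ratio was 0.55 in *Aire*+/+ and -0.39 in *Aire*-/- mice for *Apoe*, 0.42 and -0.83 for *Lpl*, and 0.23 and -0.48 for *Plin2*. The genotype ratio, *Aire*-/- over *Aire*+/+, had opposite signs under anti-PD1 and isotype, again with both intervals clear of 0, for a pair of genes, with -0.54 and 0.41 for *Fabp5* and -0.64 and 0.065 for *Plin2*. Each rests on 1 library per condition, and whether the ratios differ was not tested. *Spp1* was also present in the tumor libraries of sorted CD8+ cells, which the comparisons above did not use. It had 219 CPM in *Aire*+/+ isotype, 174 in *Aire*+/+ anti-PD1, 255 in *Aire*-/- isotype and 233 in *Aire*-/- anti-PD1. The difference between these libraries was not tested.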

How the results depend on the processing

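No called log2 ratio of the 9 genes in macrophages changed sign under any alternative. Of the 36 log2 ratios in macrophages, 35 kept their side of 1.5-fold with at least 3 C1q UMIs, 33 with at least 20, 35 without cells at a lymphocyte gate (the largest shift, *Lpl* under anti-PD1 at -2.91), 32 with cells thinned to 5000 UMIs before gating, 34 scaled by the median log2 ratio, 35 as a mean over cells, 35 without the cell with most UMIs of the gene (added after the data were seen) and all 36 without the cell filter. With the T and NK level subtracted, 28 of 33 did. *Spp1* had no value in the other 3 comparisons because the lymphocyte level was as high as that of *Aire*-/- macrophages. For *Spp1* this subtraction cannot be read as a background correction, since T and NK cells held many of its UMIs, whose origin was not tested. The median of the 9 under anti-PD1, *Aire*-/- over *Aire*+/+, was -0.96 at 3 and -0.57 at 20 C1q UMIs and -0.60 thinned. Under isotype it was -0.42 at 3 C1q UMIs, -0.36 without lymphocyte-gate cells, -0.19 thinned, -0.35 scaled and -0.36 as a mean over cells, and in *Aire*-/- mice the treatment median was -0.31 at 20 C1q UMIs. Thinned, *Cd36* was higher in *Aire*-/- in each genotype comparison. That rests on 1 random draw of a gene with 22 UMIs in *Aire*-/- anti-PD1 macrophages before thinning. With the T and NK level subtracted, *Cd36* was higher and 0 of the 9 lower in *Aire*+/+ under anti-PD1. The share of all genes past the fold under these settings is not given here, so these calls are no result about the 9 genes. At 2-fold, 0 of the 9 were lower under isotype, against 207 of 11143 genes. In the *Aire*+/+ treatment comparison 0 of the 9 were lower too, against 181 of 11215. Among all genes, at least 100 UMIs left fewer genes tested and so fewer past 1.5-fold, with higher and lower counts of 516 and 772 under anti-PD1, 391 and 297 under isotype, 106 and 137 in *Aire*+/+ and 236 and 370 in *Aire*-/- mice. A minimum of 1 UMI gave 3562 and 1633 under anti-PD1, 2776 and 1057 under isotype, 2317 and 1397 in *Aire*+/+ and 3161 and 1250 in *Aire*-/- mice. At that minimum, the floor of 3 counts for a sum of 0 can by itself put a gene past the fold. It does so most where the macrophages held fewer UMIs, so these counts cannot show a direction. At 2-fold the counts were 454 and 460 of 10503 genes under anti-PD1 and 255 and 207 of 11143 under isotype. They were 98 and 181 of 11215 in *Aire*+/+ and 265 and 261 of 10235 in *Aire*-/- mice. *Trem2* under anti-PD1 was -0.57 at 20 C1q UMIs, and *Plin2* -0.49. Where no construction shows it, the cause was not tested. No paired analysis was possible because each group has 1 library. The share of macrophages with *Lpl* after thinning in *Aire*-/- anti-PD1 was 3.31% in the draw used and 1.28% as the expected share over all draws, an alternative also added after the data were seen. Added likewise, the monocyte ratios kept their side of 1.5-fold in 33 of 36 without C1q and in 35 of 36 without the cell with most UMIs, and *Spp1* in T and NK cells kept it in all 8. Thinned to 5000 UMIs, monocytes without C1q had an anti-PD1 genotype ratio for *Lpl* of 0.77 (-0.018 to 1.58) in the draw used and 0.45 expected over all draws, and for *Cd36* -0.18 and 0.18. Of the 9 genes, low UMI counts limit *Gpnmb*, *Lpl* and *Cd36* most, and they also limit pathway genes of few CPM such as *Apoc1* and *Pparg*.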

Other observations

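In the libraries of sorted CD8+ cells, *Fabp5* had 101, 66.5, 54.3 and 38.6 CPM in the tumors and 8.35, 8.45, 7.18 and 9.34 in the spleens. *Plin2* had 23.0, 29.6, 27.2 and 26.2 and 16.8, 9.96, 10.6 and 13.1, and *Spp1* 0.696, 0.417, 0.192 and 0.123 in the spleens. These values have no replicate check either. The number of macrophages per tumor and the protein or lipid content of the cells were not analysed here, and gated cells can differ from the study's clusters.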
